A study of Mus musculus with 2 samples.

Results

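The cells described here are 89 of the 3188 cells kept from 1 single-cell library of adult mouse thymus (2.79%, exact 95% binomial interval 2.25 to 3.42%). They were chosen by their transcripts: each holds at least 2 UMIs of Cd209e, a gene for a C-type lectin of the DC-SIGN family. UMIs, unique molecular identifiers, count captured RNA molecules once each. A cell was left out when it had 3 or more UMIs of the mature dendritic cell genes Ccr7, Fscn1 and Ccl22 together, 3 or more of the complement genes C1qa, C1qb and C1qc, or 5 or more of the cell division genes Top2a, Mki67, Birc5, Ube2c, Pclaf and Hist1h1b. The study sorted CD64-positive cells from enzymatically digested thymus of adult C57BL/6 mice and made 10x Genomics 3′ libraries in 2021 and in 2024, with no other genotype or treatment. The labels call the sorted cells macrophages and give no number of animals. The 2021 library holds 3214 barcodes and 8534578 UMIs (median 2157.5 per barcode), and the 2024 library holds 2815 barcodes and 24569270 UMIs (median 5312). The 2024 counts were used for these numbers only, because no list of gene names for them was used here, and cell barcodes shared between the libraries were not counted. All gene values therefore come from 1 library, and there is no replicate, no test and no p-value below. Intervals are exact 95% intervals that cover counting error only.

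Dendritic cells take up antigen, present peptides on MHC class II and, in the thymus, show self peptides to developing T cells. Conventional dendritic cells depend on the cytokine receptor Flt3 and carry the transcription factor Zbtb46. Plasmacytoid dendritic cells depend on the transcription factor Tcf4 (E2-2), carry the lectin Siglech and are known for making type I interferon. Lectins of the DC-SIGN family bind sugars on microbes and on host glycoproteins, and the mouse has several copies of this gene side by side. Timd4 (Tim-4) is a receptor for phosphatidylserine, the lipid that dying cells expose, and is known from tissue macrophages that clear them.

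The comparison cells were 300 cells of the same library with at least 2 UMIs of Cd209a, Mgl2 and Cd209d together and none of Cd209e, under the same other limits, called here the Cd209a gate. Mgl2 encodes a lectin that binds galactose-type sugars. The gates for other cells were a C1q gate of 384 cells (macrophages by their complement genes), a neutrophil gate of 479 cells and a T gate of 398 cells. The last 2 serve as background for genes that their cells should lack. Free RNA in the suspension and cells captured together were not told apart in them. Median depth was 3850 UMIs per Cd209e cell (range 908 to 16293), 3318.5 in the Cd209a gate, 2662 in the C1q gate, 1804 in the neutrophil gate and 1126 in the T gate. Levels are UMIs of a gene summed over a set of cells per 1e6 UMIs of the same cells (CPM). Shares of cells with a UMI are given also after each cell was thinned at random to 2000 UMIs, which 87 Cd209e cells and 285 Cd209a gate cells could supply.

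Of 167 kept cells with a Cd209e UMI, 104 had at least 2, and the limits took out 15 of these: 4 by mature dendritic cell genes, 5 by C1q and 6 by cell division genes. The 89 cells held 427 of the 557 Cd209e UMIs of all kept cells (76.7%). Cd209e UMIs per cell ran from 2 through a median of 4 to 22. The level was 1142 CPM, against 2.43 CPM in the C1q gate, 1.64 CPM in the neutrophil gate and 1.34 CPM in the T gate. These values follow from the choice of the cells and from the gates, and are a description.

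The name dendritic-related came with the rule that chose the cells and is not in the sample labels. Of 10 genes listed as shared by conventional dendritic cells, Flt3 and Zbtb46 were present. Against the Cd209a gate, Bcl11a of that list was at least 2-fold higher and Id2 and Cd24a at least 2-fold lower. Itgax was also lower, within 2-fold (described further on). Flt3 was at 189.9 CPM (148 to 240), with a UMI in 45 of 89 cells, against 97.1 CPM (79.2 to 118) in the Cd209a gate, 20.2 CPM in the C1q gate and 1.64 CPM in the neutrophil gate. Zbtb46 was at 66.9 CPM against 40.0 CPM in the Cd209a gate, with intervals that overlap (43.3 to 98.7 and 28.8 to 54.1). Markers of macrophages were present at a lower sum than in the Cd209a and C1q gates: of 20 listed, Mertk, Vcam1, Cd5l, Marco, Trem2, Lyve1 and Gas6 had 0 UMIs in the Cd209e cells, and the list summed to 379.8 CPM against 684.6 CPM in the Cd209a gate and 14258.7 CPM in the C1q gate. Fcgr1, which encodes the CD64 protein used for the sort, had 4 UMIs in 2 of the 89 cells (10.7 CPM, 2.91 to 27.4), against 14.3 CPM in the Cd209a gate and 93.9 CPM in the C1q gate. The labelled cell type is macrophage, and its listed markers were not absent: they had 142 UMIs, 32 of the 89 cells had none of them, and Cd68, a lysosomal protein of macrophages and dendritic cells, was the highest at 144.4 CPM.

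The 4 genes given as markers of the cells were not equally carried. Timd4 had 57 UMIs in 27 of 89 cells (30.3%), between 0 and 5 per cell. Cox6a2, a muscle-type subunit of cytochrome c oxidase that plasmacytoid dendritic cells also carry, had 31 UMIs in 7 cells, of which 24 lay in 2 cells with 13 and 11. Prg2, the eosinophil major basic protein, had 3 UMIs in 2 cells (8.02 CPM, 1.66 to 23.5) and none in the Cd209a gate. Cd209e is in every cell because the rule chose on it, and 62 of the 89 cells had no Timd4 UMI.

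The Timd4 level was 152.5 CPM (116 to 198) in the Cd209e cells. It was 21.9 CPM (13.9 to 32.9) in the Cd209a gate, 61.5 CPM (48.5 to 77.0) in the C1q gate, 4.03 CPM in the T gate and 1.64 CPM in the neutrophil gate. The log2 ratio to the Cd209a gate was 2.80 (2.08 to 3.57), a fold of 6.96. At 2000 UMIs per cell, 20.7% of the Cd209e cells had a Timd4 UMI (12.8 to 30.7%), against 2.81% of the Cd209a gate (1.22 to 5.46%), 10.6% of the C1q gate (7.12 to 15.1%) and 0.478% of the neutrophil gate (0.0121 to 2.64%). None of 106 T gate cells had one, which allows a share of up to 2.83% by a floor of 3 counts and 3.42% by the exact interval. The intervals of the Cd209a and neutrophil gates lay below that of the Cd209e cells, and that of the C1q gate overlapped it.

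**Figure D1:**
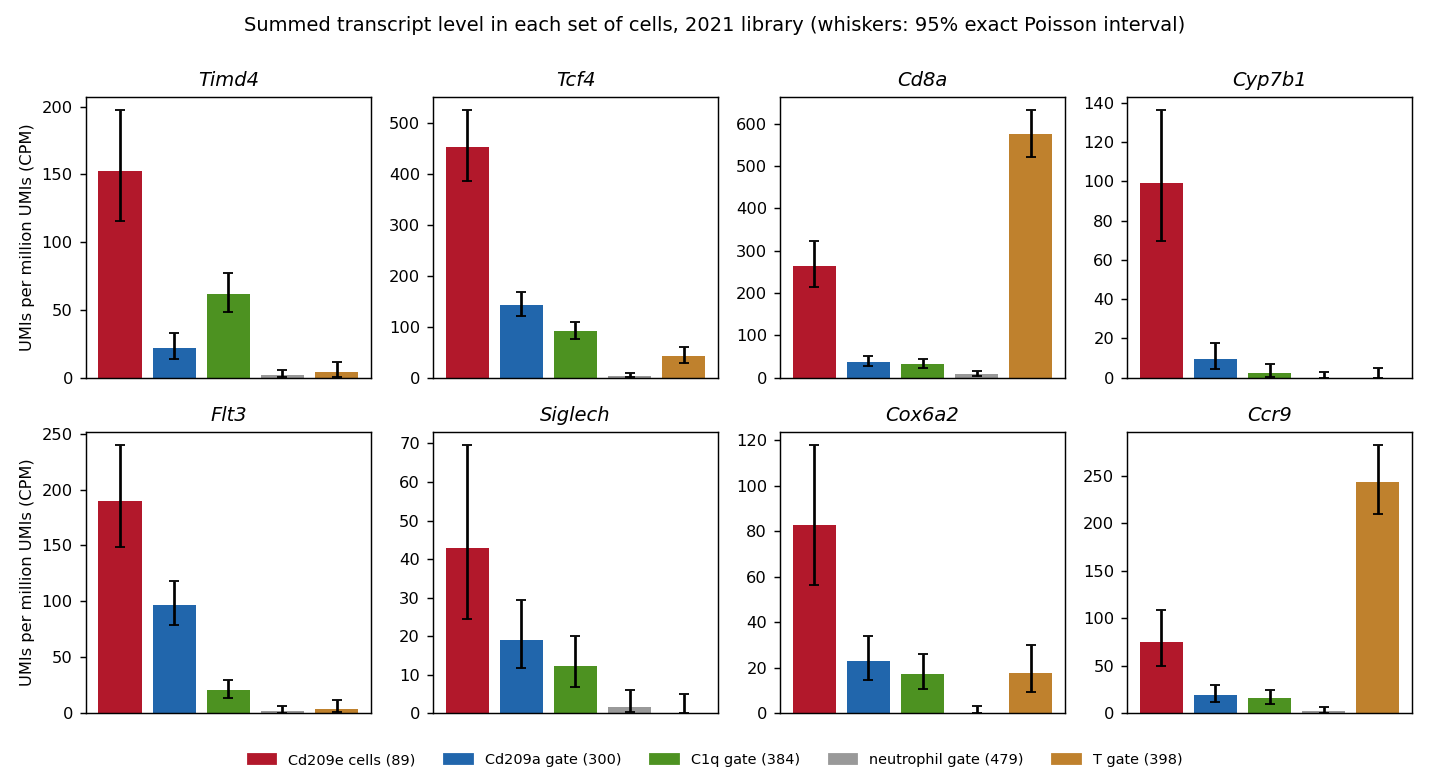
Level of 8 genes (CPM, y axes from 0) in the 89 Cd209e cells and 4 other gates of the 2021 library; whiskers are exact 95% Poisson intervals. Timd4, Tcf4, Cyp7b1, Flt3, Siglech and Cox6a2 have their tallest bar in the Cd209e cells, and Cd8a and Ccr9 in the T gate. A Siglech gate of 5 cells is not drawn, in which Siglech, Cox6a2 and Tcf4 were at 1403.1, 2367.8 and 613.9 CPM. Cd8a stood at 264.8 CPM in the Cd209e cells and 575.5 CPM in the T gate.

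Among the plasmacytoid genes Tcf4, Ccr9, Siglech and Cox6a2, Tcf4 was found in the most cells. It had 169 UMIs in 67 of 89 cells (75.3%), from 0 through a median of 1 to 13 per cell, and a level of 452 CPM (387 to 526). The Cd209a gate was at 142.8 CPM (121 to 168), the C1q gate at 91.5 CPM and the neutrophil gate at 4.11 CPM. The log2 ratio to the Cd209a gate was 1.66 (1.34 to 1.99). At 2000 UMIs per cell, 58.6% of Cd209e cells had a Tcf4 UMI, against 20.7% of the Cd209a gate and 0.957% of the neutrophil gate. Id2, an inhibitor of E proteins such as Tcf4, had the opposite pattern: 10 UMIs in 4 Cd209e cells (26.8 CPM, 12.8 to 49.2), of which 4 in a single cell, against 104 UMIs in 53 cells of the Cd209a gate (99.0 CPM, 80.9 to 120).

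Siglech and Cox6a2 were confined to few of the cells. Siglech had 16 UMIs in 11 of 89 cells, at most 3 per cell, or 42.8 CPM (24.5 to 69.5) against 19.0 CPM (11.6 to 29.4) in the Cd209a gate, a log2 ratio of 1.17 (0.12 to 2.19). Cox6a2 was at 82.9 CPM (56.3 to 118) against 22.9 CPM (14.6 to 34.0), a log2 ratio of 1.86 (1.04 to 2.69). In the 5 cells of a Siglech gate (2 or more Siglech UMIs, no Cd209e, fewer than 2 UMIs of Cd209a, Mgl2 and Cd209d), Siglech was at 1403.1 CPM and Cox6a2 at 2367.8 CPM. Of the Cd209e cells, 8 had 2 or more UMIs of Siglech and Cox6a2 together. These 8 cells held 29 of the 31 Cox6a2 UMIs and 9 of the 16 Siglech UMIs, which follows from how they were picked. In the other 81, Tcf4 was at 439.8 CPM (log2 ratio 1.62) and Timd4 at 149.6 CPM (log2 ratio 2.77). The Siglech log2 ratio was 0.90 without the cell with most UMIs, 0.80 as a mean of cells, and 1.04 (-0.09 to 2.12) without 6 cells with neutrophil or T cell genes.

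All but 2 of the 89 cells also had at least 2 UMIs of Cd209a, Mgl2 and Cd209d, and they made up 87 of the 427 such cells under the same limits (20.4%). Cd209a had 331 UMIs in 74 Cd209e cells (median 3, at most 20) and a level of 885.4 CPM (793 to 986), against 957.9 CPM (900 to 1019) in the Cd209a gate. Cd209a UMIs appeared at 2000 UMIs per cell in 73.6% of Cd209e cells and in 74.4% of the gate. Cd209d was different: 629 UMIs in 79 cells (median 5, at most 28), or 1682.5 CPM (1554 to 1819), against 345.6 CPM (311 to 383) in the Cd209a gate. At 2000 UMIs per cell, 80.5% of Cd209e cells and 28.1% of the gate had a Cd209d UMI. Mgl2 was at 831.9 CPM against 561.8 CPM. The gate's own levels of these 3 genes are set by its definition, and the ratios are a description. The paralogs Cd209f and Cd209g had 0 UMIs in both sets, Cd209b had 0 UMIs against 16 and Cd209c had 2 against 6.

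The genes of the family stand near each other on chromosome 8 (GRCm38, GENCODE annotation, minus strand): Cd209a at chr8:3743397-3748984, Cd209e at chr8:3847965-3854309 and Cd209d at chr8:3871824-3878555. Timd4 lies elsewhere, at chr11:46810800-46844332. No stretch of 31 bases was shared between the transcripts of Cd209e and those of Cd209a or Cd209d. The bases just upstream of the 3 genes are shown, from RefSeq (GRCm38.p6). Whether they bear on the levels of these genes was not tested. The windows reach up to 250 bases before the RefSeq start and end before the annotated GENCODE start. They are Cd209e (chr8:3854310-3854536, minus strand), Cd209d (chr8:3878556-3878749, minus strand) and Cd209a (chr8:3748985-3749234, minus strand), each written 5′ to 3′. Capitals mark the longest run shared by Cd209e and Cd209d and what the Cd209a window has of it.
Cd209e: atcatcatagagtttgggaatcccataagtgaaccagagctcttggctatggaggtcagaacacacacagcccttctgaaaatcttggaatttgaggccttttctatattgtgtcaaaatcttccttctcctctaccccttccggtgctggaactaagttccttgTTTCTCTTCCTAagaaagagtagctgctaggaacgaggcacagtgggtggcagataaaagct
Cd209d: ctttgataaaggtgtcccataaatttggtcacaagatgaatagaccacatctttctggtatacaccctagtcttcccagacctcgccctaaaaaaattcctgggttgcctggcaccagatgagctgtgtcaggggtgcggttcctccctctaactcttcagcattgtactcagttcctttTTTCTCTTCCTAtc
Cd209a: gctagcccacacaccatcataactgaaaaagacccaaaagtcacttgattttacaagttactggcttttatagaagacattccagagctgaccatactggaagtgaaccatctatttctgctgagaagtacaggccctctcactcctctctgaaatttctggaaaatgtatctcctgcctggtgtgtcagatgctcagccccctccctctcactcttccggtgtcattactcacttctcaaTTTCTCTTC
The shared run of 12 bases, TTTCTCTTCCTA, began 85 bases before the RefSeq start of Cd209e and 70 bases before that of Cd209d. The Cd209a window held its first 9 bases, 9 bases before the start, and ended there. The bases that follow were not compared, so the full length of the match in Cd209a is not known. The 12 bases occurred on either strand in 7 of 32851 windows of 250 bases before RefSeq starts (0.0213%). The run was picked as the longest shared by Cd209e and Cd209d, and their own windows hold it. The count of windows therefore says nothing about this pair. The run was found by comparing these sequences after the cells had been chosen, and is a match of letters only.

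Genes were compared between the Cd209e cells and the Cd209a gate where both sets together held enough UMIs, which 4230 genes did. Of these, 256 (6.05%) were at least 2-fold higher in the Cd209e cells and 254 (6.00%) at least 2-fold lower, and the median log2 ratio of all of them was 0.02. A gene with 0 UMIs on one side was set to a floor of 3 UMIs per set. The 15 genes with the largest ratios in each direction were then taken among those with at least 50 CPM, 20 UMIs and a UMI in 10% of cells on the higher side.

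The genes highest over the Cd209a gate held enzymes, surface receptors and a nuclear receptor. Cyp7b1, an oxysterol hydroxylase, had 37 UMIs in 26 cells, a level of 99.0 CPM (69.7 to 136) against 9.52 CPM (4.57 to 17.5), and none in the T or neutrophil gates. Its log2 ratio was 3.38 (2.34 to 4.55). Apod, a lipid-binding apolipoprotein, was at 109.7 CPM in 29 cells against 18.1 CPM (log2 ratio 2.60, 1.78 to 3.47). Dnase1l3, a secreted enzyme that degrades DNA from dying cells, was at 61.5 CPM against 10.5 CPM, with 23 UMIs in 10 cells. Nr4a3, an orphan nuclear receptor, had 43 UMIs in 23 cells against 21 UMIs in 13 cells (log2 ratio 2.52, 1.74 to 3.35). Cd200r1, an inhibitory receptor of myeloid cells, was at 120.4 CPM in 32 cells against 28.6 CPM. The others were Gm14161, Gm5547, Pi16, Ttc3 and Pigp, with log2 ratios between 1.95 and 2.84, and Cd8a, Cd8b1, Ccr9, Timd4 and Ngp.

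Cd8a and Cd8b1 encode the chains of CD8, a co-receptor of T cells of which some dendritic cells carry the alpha chain. Cd8a had 99 UMIs in 35 of 89 cells, at most 9 per cell, or 264.8 CPM (215 to 322) against 38.1 CPM (27.2 to 51.9), a log2 ratio of 2.80 (2.25 to 3.37). At 2000 UMIs per cell, 29.9% of Cd209e cells, 5.26% of the Cd209a gate and 1.44% of the neutrophil gate had a Cd8a UMI. Cd8b1 had 28 UMIs in 17 cells (74.9 CPM against 9.52 CPM), and was at 755.3 CPM in the T gate and 2.46 CPM in the neutrophil gate. The source of the Cd8a and Cd8b1 UMIs was not tested. The T cell genes that accompany CD8 in thymocytes were not at a like level: in the T gate, Cd8a had 429 UMIs and Cd3d 660, and in the Cd209e cells Cd8a had 99 and Cd3d 4, all in 1 cell. Cd3e had 1 UMI, Rag2, Themis and Lef1 had 0, and the 15 listed T lineage genes summed to 497.5 CPM against 178.1 CPM in the Cd209a gate and 13713.3 CPM in the T gate. Of that list, 3 of the 4 genes with enough UMIs were at least 2-fold higher, namely Cd8a, Cd8b1 and Trbc1, and 17 of the 22 Trbc1 UMIs lay in 2 cells. Ccr9, the receptor for the thymic chemokine Ccl25, was at 74.9 CPM in 17 cells against 19.0 CPM (log2 ratio 1.98, 1.10 to 2.88), and at 244.2 CPM in the T gate.

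One of the named genes belonged to a single cell. Ngp, a neutrophil granule gene, had 41 UMIs, of which 31 were in 1 cell, and its log2 ratio of 2.46 was 0.44 without that cell. The same held for the neutrophil list as a whole: 1 cell had 501 of the 617 UMIs (81.2%) of its 12 genes in the Cd209e cells, and 34 cells had none. The list summed to 1650.4 CPM in the Cd209e cells, 1304.4 CPM in the Cd209a gate and 436603.7 CPM in the neutrophil gate. Ccl5, a chemokine, had 97 UMIs of which 91 were in 1 cell.

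**Figure D2:**
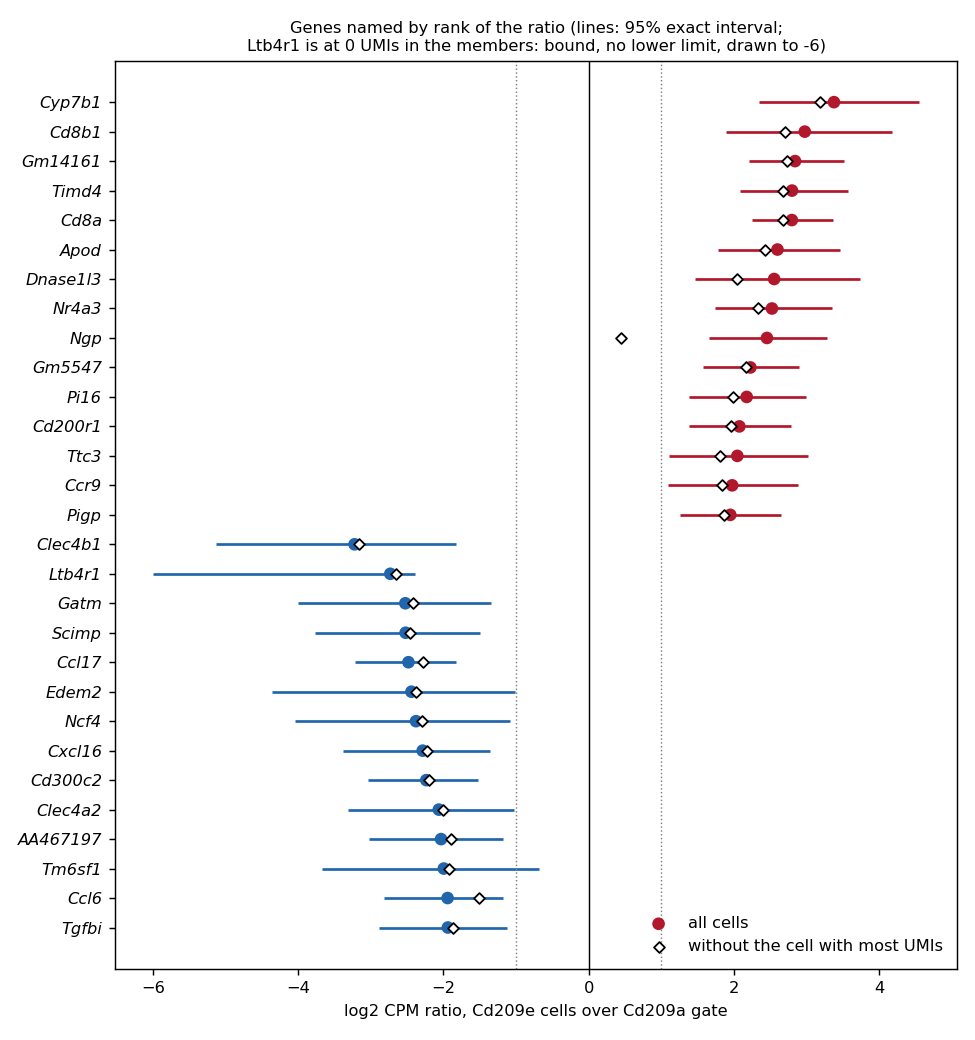
Log2 ratio of CPM, Cd209e cells over the Cd209a gate, for the 15 genes highest and 14 of the 15 lowest by the naming rule; lines are exact 95% intervals, diamonds leave out the cell with most UMIs and dotted lines mark 2-fold. Ngp is the gene whose diamond leaves the rest, at 0.44 instead of 2.46.

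The genes lowest against the Cd209a gate included lectins, chemokines and a lipid mediator receptor. Clec4b1, a C-type lectin, had 4 UMIs in 89 cells (10.7 CPM) against 105 UMIs in 300 cells (99.98 CPM), a log2 ratio of -3.22 (-5.13 to -1.83). Ltb4r1, the leukotriene B4 receptor, had 0 UMIs against 56, which makes it at least 6.65-fold lower at the floor of 3 UMIs over the set, and the exact interval of its log2 ratio has an upper limit of -2.39. Ccl17, a chemokine for Ccr4-bearing T cells, was at 53.5 CPM in 6 cells against 299 CPM in 56 cells (log2 ratio -2.48, -3.21 to -1.83). In both sets a single cell held many of its UMIs, 12 of 20 and 42 of 314. Cxcl16, a chemokine and scavenger receptor, was at 26.8 CPM against 130.4 CPM, and Cd300c2, an activating receptor, at 45.5 CPM against 214.2 CPM. Scimp, an adaptor of Toll-like receptor signalling, and Ncf4, a subunit of the phagocyte oxidase, had log2 ratios of -2.52 and -2.38. Gatm, Edem2, Clec4a2, AA467197, Tm6sf1, Ccl6 and Tgfbi lay between -2.52 and -1.94.

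Genes were also read by lists of dendritic and other functions, against the background of 6.05% higher and 6.00% lower. Of 10 genes shared by conventional dendritic cells, 1 was at least 2-fold higher (Bcl11a) and 2 lower (Cd24a and Id2), with a median log2 ratio of 0.06. Itgax, which encodes CD11c, was at 109.7 against 211.4 CPM (log2 ratio -0.95, -1.46 to -0.46). Of 11 plasmacytoid genes with enough UMIs, out of 20 listed, 5 were at least 2-fold higher (Siglech, Tcf4, Cox6a2, Ccr9 and Ly6d) and 2 at least 2-fold lower (Smim5 and Ly6a), with a median log2 ratio of 0.58. Siglech was below 2-fold without its highest cell. Cox6a2 had a log2 ratio of 1.09 without its highest cell, and 24 of its 31 UMIs lay in 2 cells. Ly6d rested on 3 cells, and 15 of its 29 UMIs were in 1. Klk1, Atp1b1, Cd300c and Dntt of that list had 0 UMIs in the Cd209e cells. The list summed to 2225.5 CPM in the Cd209e cells, 1552.0 CPM in the Cd209a gate and 16048.4 CPM in the 5 cells of the Siglech gate. Of 12 cDC2 genes, those of the second conventional type, 1 was at least 2-fold higher (Cd7, 288.9 against 141.9 CPM) and 2 lower (Sirpa, 72.2 against 161.9 CPM, and Ccl17), with a median of 0.21. Irf4, the transcription factor of this type, was at 165.8 CPM (log2 ratio 0.82, 0.33 to 1.29). The 14 listed cDC2 genes summed to 5882.0 CPM, against 6717.4 CPM in the Cd209a gate and 2543.2 CPM in the Siglech gate. None of the 5 cDC1 genes with enough UMIs passed 2-fold either way, Xcr1 had 0 UMIs in both sets and Clec9a had 3 UMIs against 8.

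Of 27 transcription factors of dendritic cells, 4 were at least 2-fold higher and 1, Id2, at least 2-fold lower, with a median of 0.19. The higher ones were Tcf4, Nr4a3, Bcl11a (321 against 159 CPM, log2 ratio 1.01, 0.66 to 1.36), which plasmacytoid cells need, and Runx1 (246.1 against 119.0 CPM, log2 ratio 1.05, 0.64 to 1.45). Irf8, needed by cDC1 and plasmacytoid cells, was at 53.5 CPM against 94.3 CPM (log2 ratio -0.82, -1.59 to -0.11). Zeb2, Spi1, Klf4 and Notch2 had intervals that included 0.

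Antigen presentation genes were high in both sets. The 10 MHC class II genes summed to 66175.6 CPM against 51458.6 CPM, and to 293.9 CPM in the neutrophil gate, with a median log2 ratio of 0.45, and 1 of 10 passed 2-fold: H2-Ob, the beta chain of the peptide-loading regulator H2-O (152.5 against 60.9 CPM, log2 ratio 1.32, 0.78 to 1.86). Its partner H2-Oa was at 206.0 CPM against 105.7 CPM (log2 ratio 0.96, 0.52 to 1.39). None of 11 MHC class I genes (median 0.19) and none of 10 cathepsin and processing genes (median -0.03) passed 2-fold in either direction. Ctsb, a lysosomal protease, was the farthest of these at 294.2 against 163.8 CPM (log2 ratio 0.85, 0.49 to 1.20).

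Genes for surface receptors went in different directions. Of 14 genes of costimulation and checkpoints, 3 were at least 2-fold higher (Cd200r1, Lag3 at 90.9 against 27.6 CPM, and Btla at 50.8 against 20.9 CPM) and 2 lower (Sirpa and Lilrb4a), with a median of 0.27. Cd86 and Cd40, which costimulate T cells, had log2 ratios of 0.43 (-0.70 to 1.48) and 0.00 (-0.78 to 0.72). Of 5 Fc receptor genes, Fcgr2b, the inhibitory one, was at 339.7 against 136.2 CPM (log2 ratio 1.32, 0.96 to 1.67), Fcrla at 37.5 against 5.71 CPM on 14 UMIs, and Fcgr3, an activating one, had 1 UMI against 36 (log2 ratio -3.68, -9.02 to -1.11). Of 12 growth factor receptor genes, Il7r was at least 2-fold higher (14 UMIs, 37.5 against 16.2 CPM) and Csf1r (69.5 against 158.1 CPM) and Ifngr1 (77.6 against 158.1 CPM) lower. Of 6 receptors and bridges for dying cells, Timd4 was the only one at least 2-fold higher, Axl (2 UMIs against 48) and Mfge8 (4 against 29) were lower, and the median was -0.22.

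Among genes of the interferon response and of innate sensing, those past 2-fold were all lower than in the Cd209a gate. None of 17 interferon response genes was at least 2-fold higher and 5 were lower: Ifi27l2a (834.6 against 2428.9 CPM, log2 ratio -1.54, -1.72 to -1.37), Isg15 (165.8 against 417 CPM), Oas1a, Ly6a and Ifi44. The median of the list was -0.59. Of 5 genes of nucleic acid and Toll-like sensing, Tlr2 (3 UMIs against 39) and Unc93b1, which carries Toll-like receptors to endosomes (64.2 against 143.8 CPM), were lower and none was higher. Of 7 related lectins outside the gate's own genes, Clec4a1, Clec4a2, Clec4a3 and Clec4n were at least 2-fold lower and none was higher. Of 9 genes of dendritic cell maturation outside the rule, Il4i1 (361.1 against 160.0 CPM) and Ccl5 were higher and Ccl17 lower, with a median of 0.23. Among 9 chemokines, Ccl17, Cxcl16, Ccl6 and Cxcl2 were lower, and the higher ones (Ccl5, Cxcl10 and Ccl2) each had all but a few of their UMIs in 1 cell: 91 of 97, 17 of 18 and 12 of 12. Of 14 genes that tissue dissociation raises, none passed 2-fold (median -0.22). Of 13 cytochrome c oxidase genes, Cox6a2 was the only one to pass 2-fold (median -0.07).

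**Figure D3:**
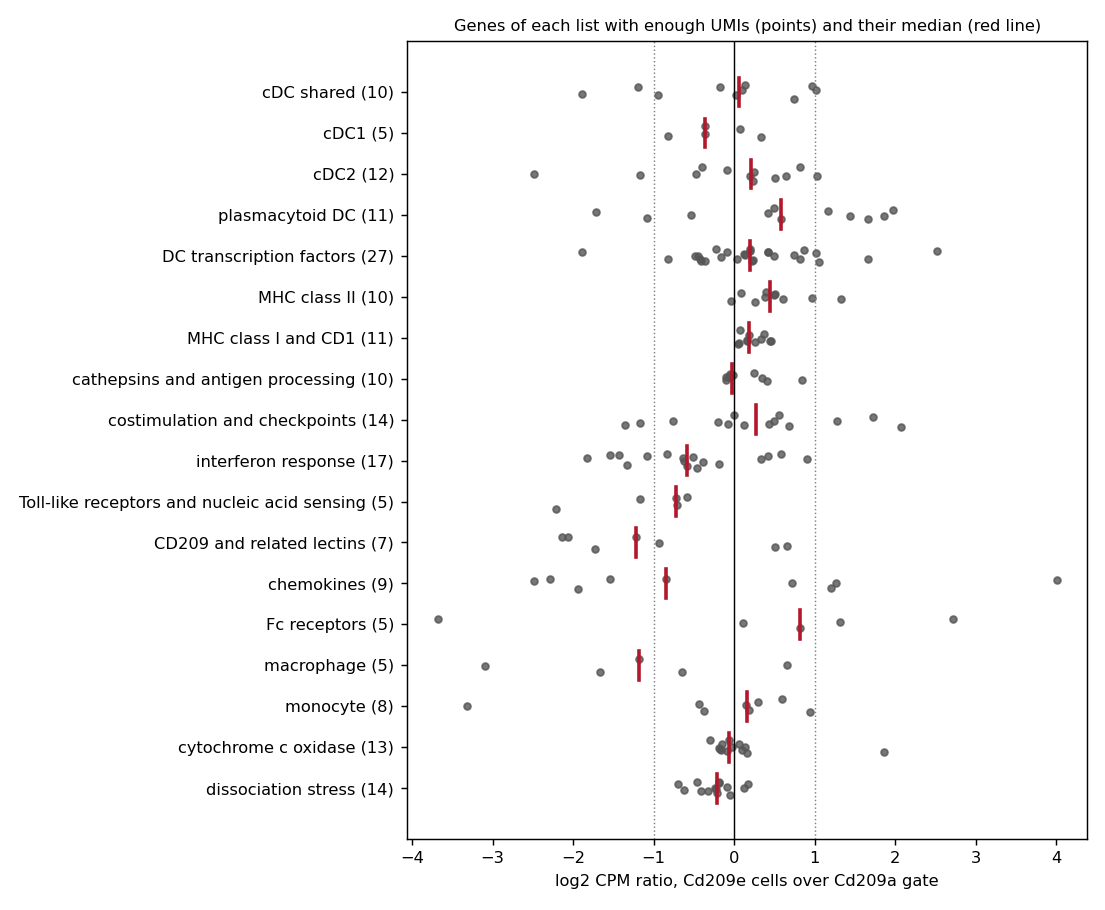
Log2 ratio of CPM, Cd209e cells over the Cd209a gate, for each gene with enough UMIs (points, number in brackets) in 18 lists, with the list's median in red and dotted lines at 2-fold. The interferon response median is -0.59 and the MHC class II median 0.45, and the chemokine point near 4 is Ccl5, which rests on 1 cell.

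Among the other cell types the sorted suspension could hold, B lineage genes summed to 179.2 CPM (Pax5 and Ms4a1 at 0), NK and innate lymphoid genes to 700.8 CPM, most of it Klrd1 (644.6 CPM), and genes of eosinophils, basophils and mast cells to 96.3 CPM, with 13 of 15 at 0 and Ear2 at 88.3 CPM. Thymic stroma genes summed to 181.9 CPM, with Epcam at 107.0 against 130.4 CPM in the Cd209a gate and 8 of 11 at 0. Of 8 monocyte genes, 1 was at least 2-fold lower (Fn1, 2 UMIs against 56) and none higher, with a median of 0.16. The 14 listed monocyte genes summed to 2739.0 CPM against 2326.1 CPM in the Cd209a gate, 3943.9 CPM in the C1q gate and 5550.4 CPM in the neutrophil gate, with 1024 UMIs and 1 of the 89 cells at 0. Plac8 (1214 CPM) and Ms4a6c (794.4 CPM) gave most of it.

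The cells were not uniform in their Cd209e, and some genes rose or fell with it while others showed no steady order. In these values Cd209e UMIs are left out of the total that CPM is taken over. Cd209d was at 345.6 CPM in the Cd209a gate, 885.8 CPM in 53 cells with 1 Cd209e UMI (which the rule leaves out), 1142.9 CPM in 32 cells with 2, 1645.4 CPM in 24 cells with 3 or 4 and 2233.8 CPM in 33 cells with 5 or more. Trf, transferrin, was at 85.7, 155.3, 209.8, 313.9 and 441.2 CPM in the same 5 sets. Timd4 was at 21.9, 40.3, 123.0, 151.5 and 182.1 CPM, with overlapping intervals among the 3 sets of Cd209e cells (71.6 to 197, 82.9 to 254 and 119 to 267). Tcf4 was at 142.8, 373.9, 332.8, 400.5 and 602.2 CPM, so that cells with a single Cd209e UMI were already above the gate. Cd209a showed no such order, with 957.9, 805.3, 694.4, 1234.0 and 847.3 CPM. Cd8a was at 38.1, 109.3, 245.9, 162.4 and 350.1 CPM and Ccr9 at 19.0, 46.0, 43.4, 10.8 and 147.1 CPM, without a steady order. The first Cd209a and Cd209d values are set in part by the definition of the Cd209a gate, which asks for UMIs of these genes. The other sets have no such requirement. Cd300c2 ran the other way, at 214.2, 109.3, 43.4 and 97.4 CPM in the first 4 sets and at 2 UMIs in all of the last. Median depth in the 5 sets was 3318.5, 3438, 3761, 3760.5 and 4022 UMIs, so cells with more Cd209e UMIs were also somewhat deeper, and the part of depth in these orders was not tested beyond the use of CPM.

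**Figure D4:**
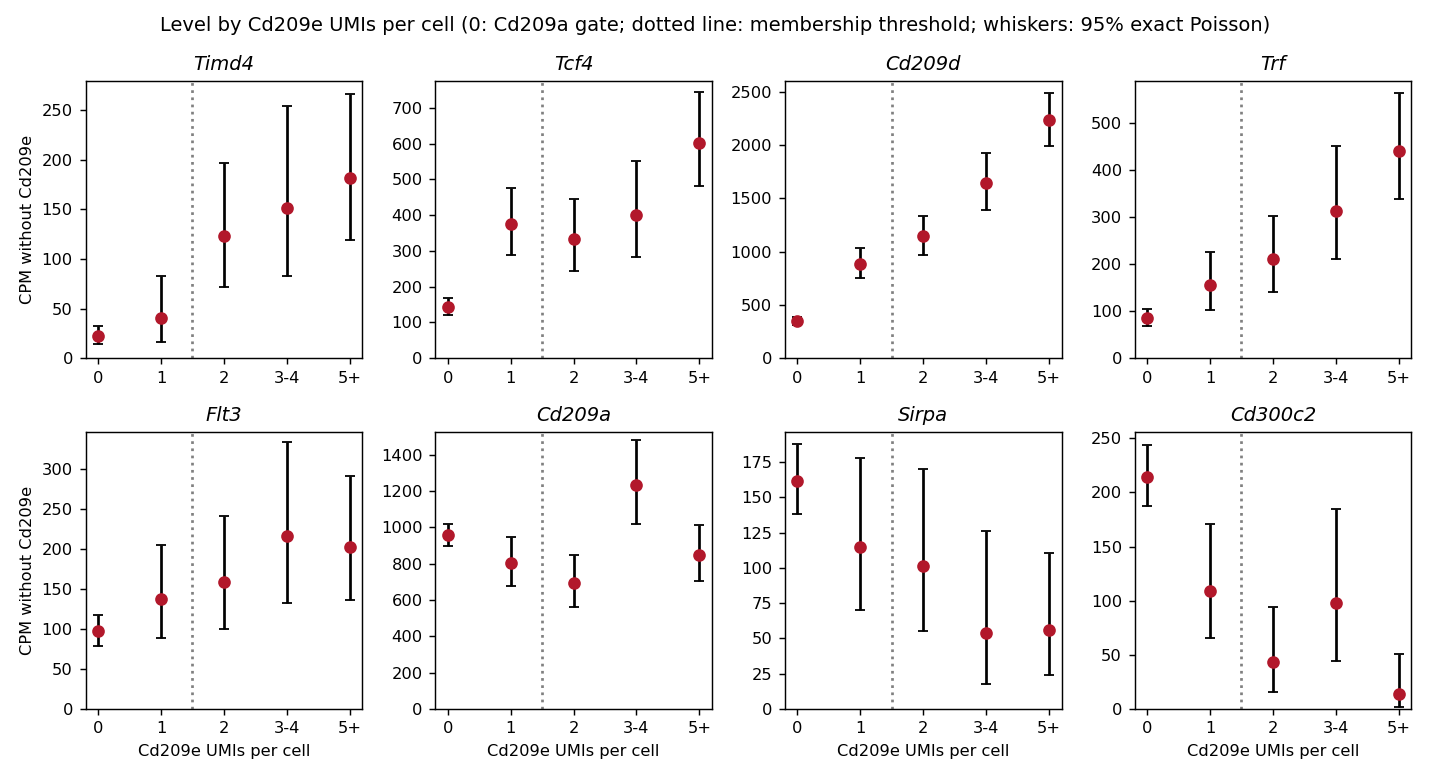
Level (CPM, y axes from 0) of 8 genes by the number of Cd209e UMIs in the cell, from the Cd209a gate (0) through 53 cells with 1 and the 89 Cd209e cells with 2, 3 to 4 and 5 or more; whiskers are exact 95% Poisson intervals and the dotted line is the membership threshold. Cd209d goes from 345.6 to 2233.8 CPM from left to right and Cd300c2 starts at 214.2 CPM and ends on 2 UMIs. The Cd209a and Cd209d levels of the Cd209a gate are set in part by its definition.

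Levels of some genes, and not of others, differed between Cd209e cells with and without a Timd4 UMI. The 27 cells with a Timd4 UMI had a median of 4310 UMIs and the 62 without one 3809. Tcf4 was at 604.8 CPM in the former and 383.5 CPM in the latter, Cd209d at 2211.9 and 1445.1 CPM, Nr4a3 at 198.7 and 77.5 CPM, H2-Ob at 241.9 and 112.4 CPM, and Cd209a at 682.6 and 976.3 CPM. Aqp3 was at 112.3 and 112.4 CPM, Cd200r1 at 129.6 and 116.2 CPM and Bcl11a at 267.8 and 344.8 CPM. All 20 Ccl17 UMIs of the Cd209e cells lay in cells without Timd4. These cells come from 1 library and a UMI of Timd4 is partly a matter of chance at this depth, so the values are a description.

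When all kept cells were clustered by their variable genes, 81 of the 89 cells (91.0%) fell in 1 of 22 clusters at the finer resolution, and 6 in a cluster of 359 cells that held 215 of the 300 Cd209a gate cells. At the coarser resolution 87 of the 89 shared a cluster of 689 cells with 268 of the gate's cells. The finer cluster held 187 cells, of which 31 had 1 Cd209e UMI and 66 had none, and 45 belonged to the Cd209a gate. Its cells without Cd209e UMIs were at 114.8 CPM for Timd4, 401.8 CPM for Tcf4, 1072.9 CPM for Cd209d and 273.8 CPM for Cd8a. The cluster with most of the gate was at 3.35, 78.7, 118.1 and 8.37 CPM for the same genes. Cox6a2 (295.8 CPM) and Siglech (181.0 CPM) were higher in those 66 cells than in the 81 Cd209e cells of the cluster (90.2 and 49.8 CPM). A single cell held 23 of the 67 Cox6a2 UMIs of the 66 cells. Lower in the 66 cells were Apod (22.1 against 124.4 CPM), Cyp7b1 (35.3 against 115.1 CPM), Bcl11a (185.4 against 329.7 CPM) and Cd209d (1072.9 against 1915.9 CPM). Without the 45 gate cells that share the cluster, the gate of 255 cells held 1 Timd4 UMI, and the log2 ratio for Timd4 became 7.08 (4.55 to 12.4) and for Tcf4 2.26 (1.87 to 2.65). A threshold on Cd209e UMIs may therefore divide cells that are alike in some genes and differ in others, which was not tested. Ratios to the Cd209a gate include those 45 cells on the gate's side unless stated otherwise. Clusters were formed from the same counts, so these values are a description.

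The cells left out by the limits were few. The 4 past the mature dendritic cell limit had 38 Cd209d UMIs (2139.9 CPM) and 3 Timd4 UMIs, the 5 past the C1q limit had 28 and 1, and the 6 past the cell division limit had 33 and 0. Timd4 was not particular to the Cd209e cells: of the 22 clusters, 1 of 74 cells with no Cd209e UMI had a Timd4 level of 141.2 CPM, against 127.6 CPM in the cluster with most Cd209e cells. The genes whose level over the 22 clusters was most like that of Cd209e by Spearman's correlation (Foxn2 at 0.75, Med11 at 0.71 and Blcap at 0.70) were not highest in that cluster, with Foxn2 at 59.5 CPM there and 99.8 CPM in another. Doublet calling with Scrublet marked 3 of the kept cells (0.0941%), 1 of them a Cd209e cell, which is too few for the caller to have worked, and no cell was removed as a doublet. Of the 89 cells, 4 were among the 6% with the highest doublet scores, and the median score was 0.0323 against 0.0354 in all kept cells.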

How the data were processed

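Per the labels' protocols, thymus was digested enzymatically, CD64-positive cells were sorted and 10x Genomics 3′ libraries were sequenced on a NovaSeq instrument. The values are raw UMI counts for each gene in each barcode, which the authors made with Cell Ranger 6.0.0 (2021) and 8.0.0 (2024) per the file headers. The submitters' processing notes name the build mm10. The annotation is not given in the sources used here. Barcodes of the 2021 library with at least 500 UMIs, 300 genes and at most 10% mitochondrial UMIs were kept. Counts were summed over the cells of a set, and ratios of CPM have intervals from the exact conditional binomial split. A gene was compared with at least 15 UMIs over both sets and a level that gives 10 UMIs in the smaller set. Named genes were the 15 of each direction described above, without genes of the rule, ribosomal, mitochondrial, immunoglobulin and T cell receptor genes, plus the identity genes and listed genes, and 1 of the 15 lower genes is not reported here. With 1 library per group no test was run. The ratio calculation was tested on simulated data. Clusters used 2000 variable genes, 30 components, 15 neighbours and resolutions 0.5 and 1.0 in scanpy 1.11.5. Calculations used Python 3.11.15, numpy 2.4.6 and scipy 1.17.1. The members, lists and limits were chosen with earlier results of these data known. Alternatives changed the thresholds, filters, comparison cells and scaling.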

Additional observations from a re-analysis of the deposited data

How the results depend on the processing

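Timd4 kept a higher level in the Cd209e cells in every one of 12 alternatives, with a log2 ratio between 2.33 and 2.96 except against the Cd209a gate without the 45 cells of the Cd209e cluster, where it was 7.08. That comparison was added after seeing the data, as were those that remove cells by neutrophil and T cell genes or by Siglech and Cox6a2. Against the same reduced gate Tcf4 was at 2.26, Siglech at 3.67 and Cox6a2 at 3.21. Against cells with Flt3, Zbtb46 or Itgax UMIs, Tcf4 was at 2.14, Siglech at 3.26, the plasmacytoid list at a median of 1.43 and genes at least 2-fold lower numbered 421. Cox6a2 reversed to -1.90 without the 8 cells with 2 or more UMIs of Siglech and Cox6a2, which is set by removing cells on that gene from one side only. Requiring 1 or 3 Cd209e UMIs gave 142 or 57 cells. Asking also for few Cd209a, Mgl2 and Cd209d UMIs left 2 cells, too few for other values. Without a filter on low counts 890 genes were at least 2-fold higher and 986 lower, and with 10 CPM added 123 and 130. The thinned Timd4 share was 17.0% at 1000 UMIs and 30.3% unthinned. Of 29 named genes other than Timd4, 28 kept their direction and 2-fold in all 12 alternatives. Ngp was 0.51 without the highest doublet scores and reversed to -0.15 without 6 cells with 2 or more UMIs of named neutrophil or T cell genes, of which it is one. Siglech was 0.80 as a mean of cells. No paired analysis was possible because the values come from 1 library. Depth limits genes such as Prg2, which rests on 3 UMIs, and Fcgr1, whose 4 UMIs gave an interval that overlaps that of the Cd209a gate.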
